A study of Mus musculus with 4 samples.

Results

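The homeostatic microglia and complement genes described here are *Cx3cr1*, *P2ry12*, *Tmem119*, *Csf1r*, *C1qa*, *C1qb*, *C1qc*, *C4b* and *Trem2*, 9 of the 32285 genes counted in spatial transcriptomes of mouse brain. They were taken by symbol, whatever their counts, and all 9 passed the filter on low counts in each comparison below. The study follows oligodendrocyte progenitor cells (OPCs) in mice that carry a mutation in *Nf1*, the gene of neurofibromatosis type 1. Here 4 fresh frozen brain sections of a single genotype, heterozygous *Nf1*+/-, were profiled on Visium slides, in which mRNA is captured on a grid of barcoded spots. No wild-type section was used, so nothing below compares genotypes. The study used young to adult littermates of both sexes, but the age and sex of each section, and whether the sections came from separate mice, are not given in the sources used here, so n counts sections, called sections 1 to 4. The p-values measure only how far differences between spot groups within a section vary over these sections. They cannot be taken to measure a spread between mice.

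Microglia are the resident macrophages of the brain. They depend on signalling through Csf1r, the receptor of Csf1 and Il34. Cx3cr1 is the receptor of the neuronal chemokine Cx3cl1, P2ry12 senses nucleotides at microglial processes, and Tmem119 is a membrane protein used to tell microglia from other macrophages. Trem2 is a lipid-sensing receptor that signals through Tyrobp. *C1qa*, *C1qb* and *C1qc* encode the chains of C1q, which starts the classical complement pathway and in brain is made mainly by microglia. C4b is the next substrate of that pathway, and is known to be expressed by astrocytes and oligodendrocytes as well.

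The sections held 1435 to 2359 spots and 19261710 to 37002379 unique molecular identifiers (UMIs, each standing for 1 captured transcript). Spots with at least 500 UMIs were used, 1537, 2358, 2294 and 1431 in sections 1 to 4. The same position barcodes recur between sections because the slide positions share them (427 to 1989 barcodes per pair of sections), and each section's counts were kept apart. A spot is a small region that can hold several cells, so no spot was given a cell type, and a lower level of a gene can reflect fewer cells of a type or less RNA per cell, which cannot be told apart here. Levels are given as CPM (UMIs of the gene per 1000000 UMIs) and are not compared between genes.

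In the mouse assembly GRCm38.p6 the 3 C1q genes are neighbours on chromosome 4, *C1qb* at chr4:136880126-136886200, *C1qc* at chr4:136889801-136892936 and *C1qa* at chr4:136895916-136898844. *C4b* lies at chr17:34728139-34743902 and *Trem2* at chr17:48346401-48352276, and the other members lie on chromosomes 3 (*P2ry12*), 5 (*Tmem119*), 9 (*Cx3cr1*) and 18 (*Csf1r*). A near-identical neighbour of *C4b*, *C4a*, had 92 UMIs in all spots used, against 1336 for *C4b*, and reads that match both cannot be assigned, so the *C4b* counts are uncertain to that extent. The RefSeq promoter table used here held 5 of the 9 members. Their 250 bases upstream of the start were searched on both strands for GAGGAAGT, a binding motif of PU.1, the transcription factor that defines myeloid cells, and for its core GAGGAA, which lies within the longer motif. The longer motif was found upstream of *C1qc*, beginning 195 bases before the start and on the reverse strand, and the core alone upstream of *C1qb* (30 bases before the start) and *Trem2* (40 bases before it). Neither was in these windows of *Cx3cr1* or *P2ry12*. The start used for *C1qc* is that of the promoter table and lies inside the gene span given above, so its window overlaps that span. Of 32851 promoters of the same length, 2.44% held the longer motif and 23.3% the core, so a core match is common. A match is a description of letters and not a binding site. The 3 windows with a match are shown for members that were detected together in the results below, 5′ to 3′ on the gene's strand, with the motif in capitals, at chr4:136886201-136886450 (minus strand), chr4:136892915-136893164 (minus strand) and chr17:48346151-48346400 (plus strand).
C1qb: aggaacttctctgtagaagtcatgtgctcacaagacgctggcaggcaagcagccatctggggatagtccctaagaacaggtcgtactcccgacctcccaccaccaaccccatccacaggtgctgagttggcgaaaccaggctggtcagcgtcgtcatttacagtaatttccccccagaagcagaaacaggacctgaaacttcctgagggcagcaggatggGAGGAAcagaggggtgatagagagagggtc
C1qc: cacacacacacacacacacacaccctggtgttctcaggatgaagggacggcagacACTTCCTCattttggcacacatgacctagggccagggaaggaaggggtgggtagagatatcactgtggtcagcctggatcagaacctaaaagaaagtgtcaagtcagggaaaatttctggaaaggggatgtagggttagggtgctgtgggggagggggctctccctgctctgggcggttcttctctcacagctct
Trem2: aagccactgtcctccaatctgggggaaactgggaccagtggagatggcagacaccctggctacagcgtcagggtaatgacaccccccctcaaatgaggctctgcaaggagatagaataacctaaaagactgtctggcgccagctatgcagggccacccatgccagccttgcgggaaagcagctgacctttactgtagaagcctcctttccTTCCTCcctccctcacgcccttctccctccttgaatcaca

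All 9 members were detected in every section. *C1qb* was counted at 89.3, 103, 86.8 and 76.0 CPM in sections 1 to 4, *C1qa* at 68.8, 78.1, 66.7 and 58.7 CPM, and *C1qc* at 65.4, 71.3, 64.7 and 59.9 CPM. The 3 chains kept the same order of sections, with section 2 highest and section 4 lowest. *C1qb* UMIs were found in 64.5% (95% exact binomial interval 62.0 to 66.9%), 70.9% (69.0 to 72.7%), 46.9% (44.9 to 49.0%) and 52.2% (49.6 to 54.8%) of the spots. These shares follow depth, and section 3, the shallowest with a median of 8862.5 UMIs per spot, had the lowest. After each spot with at least 5000 UMIs was thinned to 5000, the share for *C1qb* was 32.9% ± 4.31 (SD, n = 4 sections). Intervals cover counting error only.

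*Csf1r* was counted at 56.4 ± 5.92 CPM (SD, n = 4 sections), *P2ry12* at 38.7 ± 2.88 CPM, *Trem2* at 24.2 ± 2.61 CPM, *Tmem119* at 24.0 ± 2.74 CPM and *Cx3cr1* at 17.6 ± 2.06 CPM. Whether the spread between sections of these receptors and surface markers exceeds counting error was not tested. *Tmem119* stood at 28.1 CPM in section 2 and within 22.5 to 22.8 CPM in the other sections. *C4b* was counted at 14.4, 11.8, 16.5 and 10.4 CPM, from 337, 435, 363 and 201 UMIs, and in 17.8%, 14.7%, 13% and 11.5% of the spots. Most spots that held *C4b* therefore held few of its UMIs, and the highest number in a spot was 6.

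To compare white with gray matter, spots were ranked within each section by their excess of UMIs of 8 myelin genes over the number that their total UMIs predict. The top 15% were taken as white matter (186 to 342 spots per section) and the lowest 60% as gray matter (753 to 1333 spots). Spots with at least 3 of 10 choroid plexus or 3 of 9 fibroblast markers were left out of both, and spots with fewer of them stayed in. No member is among the 8 genes. UMIs were summed per section and group, and the sums tested with edgeR (quasi-likelihood, section as a block). Of 13617 genes tested, 3680 (27.0%) differed at an adjusted p under 0.05, 1911 higher in white matter (14.0%) and 1769 lower. Relative to all UMIs, 8 of the 9 members were higher in white matter and none was lower, with *Cx3cr1* the member that did not pass the test. The median log2 fold change was 0.58 over the 9 members and −0.01 over all genes tested.

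*C4b* moved furthest, and *C1qb* and *C1qa* came next. *C4b* rose from 8.80, 8.84, 10.9 and 5.82 CPM in the gray matter of sections 1 to 4 to 32.3, 24.4, 50.2 and 46.0 CPM in white matter. The groups did not overlap, and section 4 held both the lowest gray matter value and the largest ratio, 7.90-fold against 2.76-fold in section 2. The log2 fold change of *C4b* was 2.11 (standard error 0.18, adjusted p = 3.78e-08), from 265 UMIs in white and 559 in gray matter. *C1qb* was counted at 79.0, 92.2, 73.6 and 70.1 CPM in gray and 130, 124, 147 and 117 CPM in white matter (log2 fold change 0.76, standard error 0.090, adjusted p = 2.62e-06). *C1qa* stood at 56.0 to 68.8 CPM in gray and 84.5 to 102 CPM in white matter (0.68, standard error 0.084, adjusted p = 4.50e-06), and *C1qc* at 55.4 to 64.7 and 73.2 to 99.7 CPM (0.58, standard error 0.094, adjusted p = 0.000106). Every white matter value of the 3 C1q genes lay above every gray matter value. The share of all genes tested whose groups were separated in this way, as for these genes and *C4b*, was not counted.

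Among the receptors and surface markers, *Tmem119* was counted at 20.7, 26.3, 20.5 and 20.2 CPM in gray and 34.5, 33.1, 35.4 and 29.1 CPM in white matter (log2 fold change 0.62, standard error 0.12, adjusted p = 0.000800). *P2ry12* and *Csf1r* both rose by 0.54 (adjusted p = 0.00124 and 0.000162), and *Trem2* by 0.53 (adjusted p = 0.00215), each in 4 of 4 sections. The values of *Trem2* overlapped, since its level in the white matter of section 4 (24.4 CPM) was below that in the gray matter of section 2 (24.6 CPM). *Cx3cr1* was counted at 16, 18.4, 15.4 and 18.5 CPM in gray and 15.4, 20.4, 16 and 27.2 CPM in white matter, so that section 1 was lower and the other sections higher, section 4 by the most. Its log2 fold change was 0.21 (standard error 0.15, adjusted p = 0.341), from 142 UMIs in white matter. The ratio of *Cx3cr1* was below that of *P2ry12*, *C1qa* and *C1qb* in 4 of 4 sections, and below that of *Tmem119*, *Csf1r*, *C1qc* and *Trem2* in 3 of 4. With 4 sections an exact sign-flip test cannot give a two-sided p below 1 in 8, so this difference is not established.

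**Figure D1:**
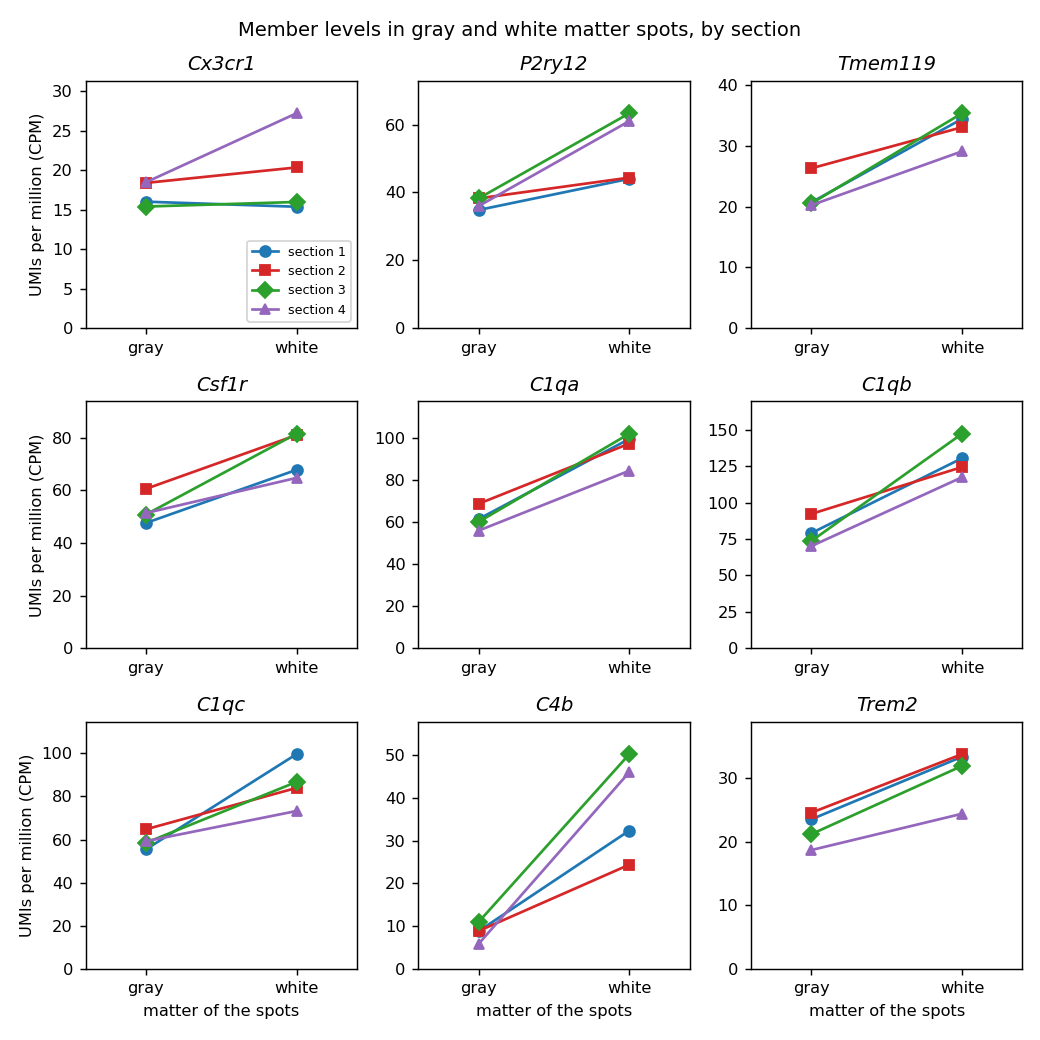
Level of each member (vertical axis, CPM, from 0) in the gray and white matter spots of 4 sections; each line joins the 2 values of a section. The lines of *C4b* climb most steeply, from 5.82 to 10.9 CPM up to 24.4 to 50.2 CPM, and those of *Cx3cr1* are flat in 3 sections.

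*C4b* was set apart from the other members in size. Its log2 ratio between white and gray matter was above that of each of the other 8 members in 4 of 4 sections, by a mean of 1.41 ± 0.56 for *C1qb*, the closest, and 1.96 ± 0.47 for *Cx3cr1*, the farthest (SD, n = 4 sections). These differences too cannot pass an exact test over 4 sections. *C4b* was also more frequent in white matter after thinning to 5000 UMIs. It was found in 14.5, 13.2, 21.9 and 12.8% of the thinned white matter spots of sections 1 to 4, against 3.85, 5.17, 5.43 and 2.96% of the thinned gray matter spots. Of the white matter spots, 172, 227, 146 and 86 were deep enough to be thinned. The thinned share of *C1qb* was likewise higher in white matter in 4 of 4 sections, by 4.30 to 11.2 percentage points, and that of *Cx3cr1* in 2 of 4, by −2.23 to 3.38 points. For *C1qc* (−1.22 to 10.3 points) and *P2ry12* (−0.30 to 3.64 points) it was higher in 3 of 4 sections. *C1qa*, *Tmem119*, *Csf1r* and *Trem2* had a higher thinned share in 4 of 4.

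The direction of 8 members depended on the scale. White matter spots held fewer UMIs in all, with section medians of 4292 to 8543 against 10353 to 17573 in gray matter. Counted per spot, the median of all genes tested shifted to −1.21 on the log2 scale, and in the same test with the number of spots in place of total UMIs, 8 members were lower in white matter and *C4b* was higher, against 88.6% of all genes lower and 1.98% higher. *C4b* was counted at 30.3, 19.6, 26.3 and 26.3 UMIs per 100 white matter spots and at 14.7, 16.3, 12.2 and 9.52 per 100 gray matter spots (log2 fold change 0.95, standard error 0.21, adjusted p = 6.89e-06). *Cx3cr1* fell by 0.99 per spot (adjusted p = 8.15e-06) and *C1qb* by 0.43 (adjusted p = 0.0261). Hence *C4b* was the only member with the same direction on both scales. For the other members a white matter spot on average gave fewer of their UMIs than a gray matter spot. Section 1 was an exception for *C1qc* (93.5 against 92.8 UMIs per 100 spots). Those UMIs were still a larger part of the spot's total, except for *Cx3cr1*, whose larger part did not pass the test. Whether white matter spots held less mRNA or less of it was captured was not tested.

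**Figure D2:**
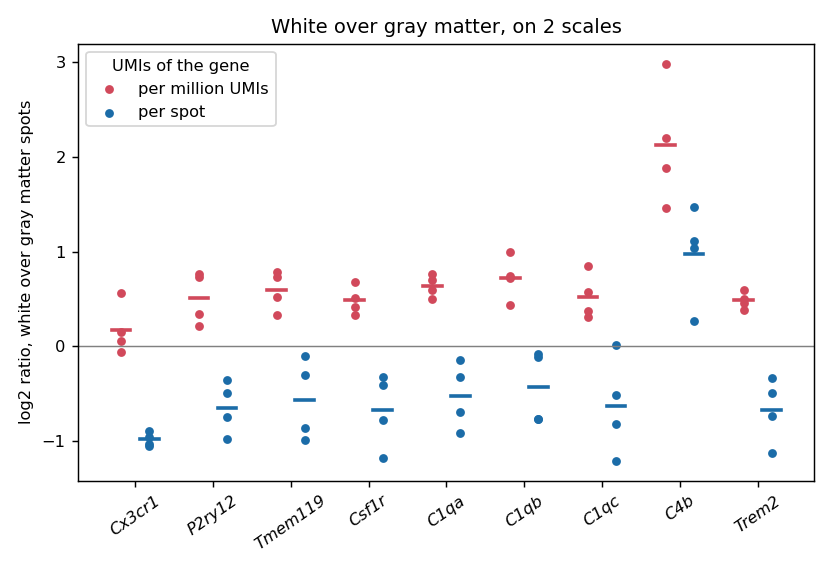
Log2 ratio of each member's UMIs in white over gray matter spots (vertical axis), as a share of all UMIs in red and per spot in blue; points are the 4 sections and bars their means. Per spot, *C4b* lies above 0 in all 4 sections, whereas the other 8 members lie below 0 apart from *C1qc* in section 1 (0.01).

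Related genes were read from lists of known function. Of 18 other genes of homeostatic microglia, 12 were higher in white matter and none was lower. The largest rises were in *Sall1*, a transcription factor of microglial identity (log2 fold change 1.14, adjusted p = 5.69e-05), and *Ctss*, which encodes a lysosomal protease (0.88, adjusted p = 8.52e-08). Of 16 tested genes of the Trem2 pathway and of disease-associated microglia, 9 were higher and 1 lower. *Cd9*, a tetraspanin that oligodendrocytes express too, rose by 2.00 (adjusted p = 1.78e-11) and *Ccl6*, a chemokine, by 1.29 (adjusted p = 0.00256), while the growth factor gene *Igf1* fell by 1.16 (adjusted p = 0.0353) on 12 UMIs in white matter. The median of the list of homeostatic genes was 0.51 and that of the Trem2 list 0.54, against −0.01 for all genes. As shares of all UMIs, both lists thus lay close to the members.

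The ligands moved in different directions. *Csf1* was counted at 23.5 ± 5.59 CPM in white and 7.53 ± 0.686 CPM in gray matter (log2 fold change 1.61, adjusted p = 1.21e-06). *Il34*, the neuronal ligand of the same receptor, stood at 30.9 ± 4.32 and 45.6 ± 5.57 CPM (−0.51, adjusted p = 0.00136), and *Cx3cl1* at 265 ± 57.4 and 385 ± 44.5 CPM (−0.51, adjusted p = 5.31e-05; SD, n = 4 sections). One ligand of Csf1r was therefore higher where the other was lower. Of 18 other complement components 4 could be tested, and none was called, nor were the 3 tested receptors of 8. Among 12 tested regulators of 14, 3 were higher, among them *Cd59a*, which blocks the membrane attack complex (0.80, adjusted p = 0.000356). *Csmd1* (−0.65, adjusted p = 0.0183) and *Susd4* (−0.31, adjusted p = 0.0133), inhibitors with neuronal expression, were lower.

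Markers of some other cells moved with the members, and those of others did not. Of the 4 tested genes of reactive astrocytes 3 were higher, led by *Gfap*, an intermediate filament gene (log2 fold change 2.87, adjusted p = 2.52e-10), and *Vim* (1.12, adjusted p = 1.27e-05). The summed level of the 7 genes of that list was 171 to 276 CPM in white and 70.2 to 89.0 CPM in gray matter. *Lcn2* and *Cxcl10* were at 0 in the white matter of sections 1 and 4, and *Cxcl10* also in sections 2 and 3. Mean levels of *Cd44* (1.59 against 1.68 CPM) and *Osmr* (0.73 against 1.18 CPM) were not higher in white than in gray matter. The summed level thus rested on *Gfap*, *Vim* and *Serpina3n* (111, 55.9 and 57.3 CPM in white matter). All 8 oligodendrocyte markers outside the myelin genes were higher, which follows from the choice of spots, and 7 of 8 neuronal markers were lower. Border macrophages, which also express *Csf1r* and the C1q genes, had 3 of 9 markers with enough UMIs to test and none called. The median log2 fold change of these 3 was 0.63, against 0.58 over the members. On such low counts the lack of a call does not show that they stayed level. The list had a summed level of 7.51 to 24.0 CPM in white and 10.1 to 15.7 CPM in gray matter. *Ms4a7* and *Cd209f* were at 0 in the white matter of sections 1, 3 and 4. The part of these cells in the members' levels was not tested.

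Since the study turns on focal accumulations of OPCs, spots were also ranked in each section by their excess of UMIs of 8 OPC markers, and the top 10% (OPC-marker-high spots, 143 to 236 per section) were set against all other spots. The study's own outlines of these regions were not used here. A top 10% exists by rule in any section, so these spots are not shown to be such accumulations. Inside its OPC accumulations the study counted microglia, reactive microglia and reactive astrocytes in tissue and saw no change in their density. Its reactive astrocytes were cells with in situ hybridization signal of both *Cxcl10* and *Sox9*. The levels below are shares of all UMIs, another measure than cell density, and *Cxcl10* had 1 UMI in all OPC-marker-high spots. Of 14259 genes tested, 397 were higher (2.78%) and 442 lower (3.10%). *C1qa*, *C1qb* and *C4b* were higher, and none of the 9 members was lower. *C4b* was counted at 15.9, 14.8, 30.2 and 18.5 CPM in the OPC-marker-high spots of sections 1 to 4 and at 14.2, 11.5, 15.1 and 9.61 CPM in the other spots. It was higher in 4 of 4 sections, but the groups overlapped, and sections 3 and 4 had the larger ratios (log2 fold change 0.61, standard error 0.14, adjusted p = 0.00782). *C1qb* stood at 117, 131, 96.6 and 82.5 CPM and at 86.6, 100.2, 85.8 and 75.3 CPM (0.30, standard error 0.061, adjusted p = 0.00231), and *C1qa* at 61.2 to 87.2 and 58.4 to 77.3 CPM (0.22, standard error 0.066, adjusted p = 0.0384).

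The other 6 members had log2 fold changes of 0.10 to 0.31 with adjusted p-values of 0.108 to 0.715. *Cx3cr1* had the largest of these (0.31, standard error 0.13, adjusted p = 0.166), being 21.1, 18.2, 23.1 and 25.3 CPM in the OPC-marker-high spots against 14.8, 19.5, 15.5 and 18.7 CPM in the others, and thus higher in 3 of 4 sections. The calls were not firm. Without section 3 *C4b* lost its call (0.45, adjusted p = 0.165), and without section 2 *C1qb* did (0.24, adjusted p = 0.0987), while *C1qa* lost its call without section 1, 2 or 3 (0.18, 0.24 and 0.21). Spots with at least 3 choroid plexus or 3 fibroblast markers are kept in this comparison. Without them *C4b* (0.62, adjusted p = 0.0156) and *C1qb* (0.24, adjusted p = 0.0455) kept their calls and *C1qa* lost its own (0.17, adjusted p = 0.203). No member was called without the section as a block, or with the 7 OPC markers other than *Pdgfra*. White matter was more frequent among the OPC-marker-high spots, 19.5 to 24.2% of them against 13 to 14.6% of all spots used, and the summed level of oligodendrocyte markers was 200 to 333 CPM against 144 to 238 CPM. The part of white matter in the 3 calls was not tested, but a similar comparison was made within each kind of tissue, as follows. There the spots were ranked anew within the tissue. Of the OPC-marker-high spots above, 36.4 to 48.3% lay in gray matter. Those in neither white nor gray matter did not enter these comparisons.

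Of the 18 other homeostatic genes, 3 were higher in OPC-marker-high spots, with *Olfml3* (0.41, adjusted p = 0.0267) and *Selplg* (0.31, adjusted p = 0.0253) ahead. Of 16 tested genes of the Trem2 list 5 were higher, with *Cd9* (0.67, adjusted p = 1.01e-06) and *Lyz2*, a lysozyme gene of myeloid cells (0.50, adjusted p = 0.0178), ahead. No gene of these 2 lists was lower. *Cx3cl1* was lower (−0.21, adjusted p = 0.00477), whereas *Csf1* (0.11, adjusted p = 0.828) and *Il34* (−0.22, adjusted p = 0.195) did not pass the test. The regulator *Vtn* (0.30, adjusted p = 0.0198) and the astrocytic *Gfap* (0.89, adjusted p = 1.78e-07) and *Vim* (0.43, adjusted p = 0.00654) were higher. The summed level of the reactive astrocyte list was 116 to 167 CPM in OPC-marker-high and 89.1 to 110 CPM in the other spots. *Gfap* and *Vim* were the only 2 called of its 5 tested genes. Mean levels of *Osmr* (1.27 against 1.41 CPM), *Lcn2* (0.27 against 0.33 CPM) and *Cxcl10* (0.13 against 0.23 CPM) were lower, on few UMIs. Those of *Serpina3n* (42.7 against 38.2 CPM) and *Cd44* (2.82 against 1.80 CPM) were higher. Of 7 mural cell markers 3 were higher, with *Acta2* (0.83, adjusted p = 0.00118) and *Tagln* (0.78, adjusted p = 0.00659) ahead, and the list summed to 80.8 to 186 CPM against 95.2 to 134 CPM. The mural markers not called did not share this rise. Mean levels were lower for *Rgs5* (50.3 against 53.2 CPM), *Pdgfrb* (6.69 against 7.48 CPM) and *Kcnj8* (3.31 against 3.48 CPM). *Notch3* alone of those was higher (8.68 against 6.98 CPM). Of 9 fibroblast markers *Dcn* was higher (0.69, adjusted p = 0.0111; list median 0.56), and the list summed to 58.4 to 112 CPM against 44.8 to 85.7 CPM. The part of these cells in the members' levels was not tested.

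Within gray matter alone, the top 10% of spots by OPC markers (75 to 133 per section) were compared with the other gray matter spots. Of 13366 genes 118 were higher (0.883%) and 186 lower (1.39%), and 0 of the 9 members passed edgeR's test, with *Cx3cr1* and *P2ry12* at an unadjusted p under 0.05 and none of the 9 called by DESeq2, which called 0.935% of the genes. *C4b* stood at 0.39 (standard error 0.20, adjusted p = 0.433), *C1qb* at 0.16 (standard error 0.090, adjusted p = 0.476) and *C1qa* at 0.07 (standard error 0.082, adjusted p = 0.805). *Cx3cr1* stood at 0.35 (standard error 0.15, adjusted p = 0.301) and was higher in 4 of 4 sections.

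Within white matter the same comparison rested on 19 to 34 OPC-marker-high spots per section. Of 7853 genes 28 were higher (0.357%) and 10 lower (0.127%), and again 0 members passed in edgeR or in DESeq2 (0.0509% of genes called), with *C4b* at an unadjusted p under 0.05 in edgeR (0.68, standard error 0.29, adjusted p = 0.458). The standard errors of the members ran from 0.18 for *C1qb* to 0.47 for *Cx3cr1*. Under the alternatives tried, 7 of the 9 members took the opposite sign at least once in this comparison, and *C4b* and *Trem2* in none of them. The difference between the OPC comparison in white and in gray matter was called for 0 of 11187 genes in edgeR (0%), with 750 at an unadjusted p under 0.05, none of them a member. The largest interaction value among the members was −0.50 for *P2ry12* (standard error 0.32, adjusted p = 0.844).

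**Figure D3:**
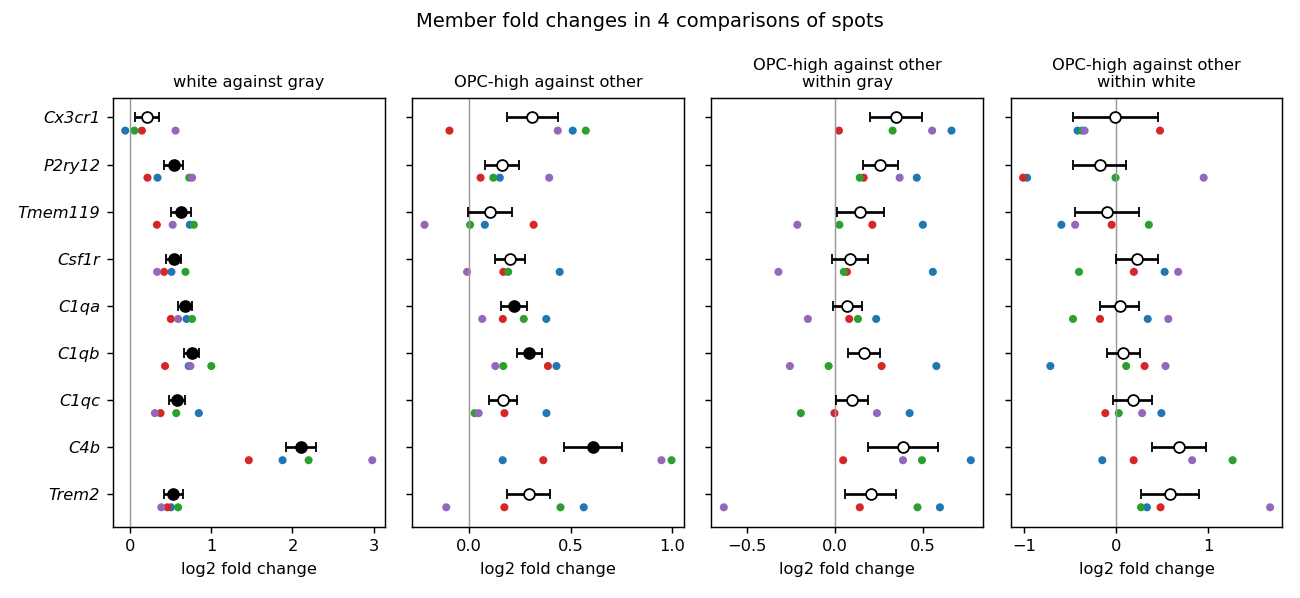
Log2 fold change of each member (horizontal axis) in 4 comparisons of spots, as the edgeR estimate (circle, with its standard error as bars; filled where the adjusted p is under 0.05), with the log2 ratios of CPM in the 4 sections as coloured dots below it (colours as in the plot of levels in gray and white matter). In white against gray matter 8 circles are filled, in OPC-marker-high against other spots 3, and within gray or white matter none.

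To ask whether members were found in the same spots beyond what depth gives, the spots of each section were sorted into 20 bins of total UMIs, and the number of spots with a UMI of both genes was divided by the number expected if they were independent within a bin. All 28 pairs among the 8 members other than *C4b* were found together more often than expected in every section. How often pairs of other genes exceed the expected number was not measured, so this count cannot be read as particular to the members. The mean ratio over 4 sections ran from 1.10 for *Csf1r* and *C1qc* to 1.29 for *P2ry12* and *Tmem119*. The latter pair shared 196, 392, 182 and 149 spots in sections 1 to 4, where 159, 336, 122 and 117 were expected. The 10 pairs among *Cx3cr1*, *P2ry12*, *Tmem119*, *Csf1r* and *Trem2* had a median of 1.26, the 15 pairs of these with a C1q gene 1.14 and the 3 C1q pairs 1.11. These medians cannot be ranked as strength of association, since the ratio has a lower ceiling where both genes are in most spots. For *C1qa* and *C1qb* no ratio above 1.64 was possible, against 2.68 for *P2ry12* and *Tmem119*.

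Pairs with *C4b* had a median of 1.10, near the 1.11 of the 3 C1q pairs, and 6 of 8 were above 1 in every section. This median cannot be ranked as strength of association either. With *P2ry12*, *C4b* shared 98, 152, 81 and 54 spots where 100, 145, 81.2 and 51.3 were expected, a ratio of 1.02 ± 0.04 (SD, n = 4 sections), so that the section values lay on both sides of 1. The highest, with *C1qb*, was 1.13 ± 0.07. Sorting spots into 5 bins of total UMIs by 5 of myelin score gave medians of 1.17 for the 28 pairs and 1.09 for the *C4b* pairs. These bins of total UMIs were coarser than those of the main ratio, so depth was matched less closely. Whether the excess depends on myelin score at equal depth was therefore not tested. When the expected number was instead taken from a rate proportional to the total UMIs of a spot, the medians fell to 0.93 and 0.76. Only 5 of the 28 pairs and 0 of the 8 pairs with *C4b* were then above 1. That rate predicted too many spots for each gene on its own, since the members were found in 0.90 to 0.96 times as many spots as it gives, and the mean CPM over sections of all 9 was higher in shallower than in deeper spots.

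**Figure D4:**
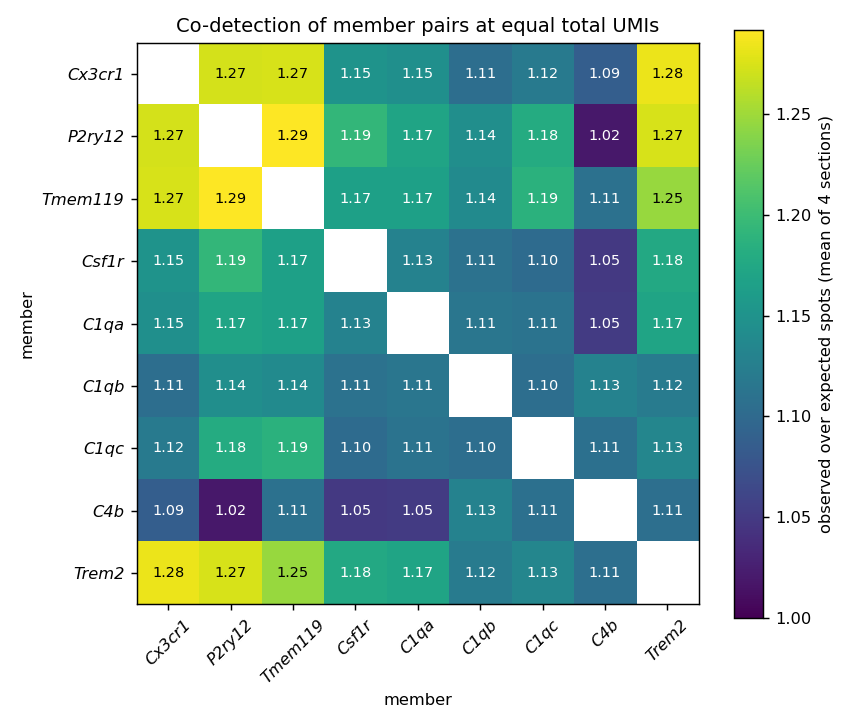
Number of spots with a UMI of both genes over the number expected at equal total UMIs, for each pair of members, as the mean of 4 sections (colour and figure in each square; the diagonal is empty). Values among *Cx3cr1*, *P2ry12*, *Tmem119* and *Trem2* are the highest (1.25 to 1.29), and the 4 lowest (1.02 to 1.09) are in the row of *C4b*.

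The company each member kept was then read from marker lists. In spots with a UMI of a member, UMIs of a list were divided by the number expected from spots of the same bin of total UMIs. All spots used entered, also those with at least 3 choroid plexus or fibroblast markers, and white and gray matter were not held apart. The 18 other homeostatic genes were in excess around each of the 8 microglial members, from 1.14 for *C1qb* to 1.3 for *Tmem119*, and also around *C4b* (1.12 ± 0.04, SD, n = 4 sections). Around the 3 C1q genes this excess (1.14 to 1.17) was below that of border macrophage markers (1.2 to 1.21). Reactive astrocyte genes stood at 0.99 to 1.08 around those 8 members but at 1.63 ± 0.16 around *C4b*, above 1 in 4 of 4 sections. Nearly all UMIs of that list were of *Gfap*, *Vim* and *Serpina3n*, so its ratios describe mainly those genes and do not show a reactive state. Around *C4b* the ratio was also 1.5 ± 0.19 for mural cell markers, 1.26 ± 0.17 for oligodendrocyte markers, 1.87 ± 0.26 for border macrophage markers and 2.11 ± 0.67 for ependymal markers, and 0.79 ± 0.04 for neuronal markers. Border macrophage markers were moderately in excess around the other members too (1.12 to 1.26), on low counts. Fibroblast markers stood at 1.80 ± 0.65 around *C4b* (0.95 to 2.44 by section) and choroid plexus markers at 1.42 ± 0.52 (0.77 to 2.04). The 8 general astrocyte markers stood at only 1.095 ± 0.025. *C4b* thus kept the company of several non-neuronal cell types, whereas around the other 8 members reactive astrocyte genes stood near the number expected.

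**Figure D5:**
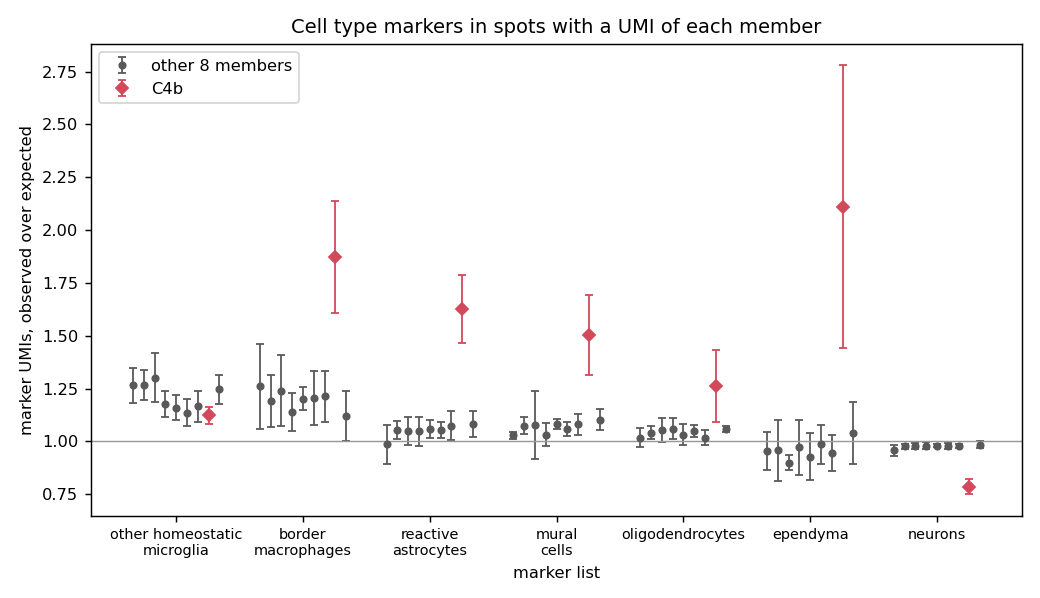
UMIs of 7 marker lists in spots with a UMI of each member, over the number expected at equal total UMIs (vertical axis; mean and SD of 4 sections). *C4b* (red diamonds) lies at 1.63 for reactive astrocyte genes and 0.79 for neurons, apart from the other 8 members (gray circles, in the order *Cx3cr1*, *P2ry12*, *Tmem119*, *Csf1r*, *C1qa*, *C1qb*, *C1qc*, *Trem2*).

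Across 9095 genes with at least 200 UMIs in every section, likeness was measured as the correlation over spots of the excess of UMIs over the number that depth predicts, averaged over 4 sections. It is a description, since the spots share a library and tissue. Among the genes closest to the summed 8 microglial members were *Ctss* (r = 0.49), *Cst3* (0.47), *Tyrobp* (0.37), *Selplg* (0.36), *Gpr34* (0.33), *Ctsd* (0.32) and *Fcer1g* (0.31). *Ctss* and *Ctsd* encode lysosomal proteases, and *Tyrobp* and *Fcer1g* signalling adaptors of myeloid receptors. All of these genes are known for expression in microglia or macrophages, and *Cst3*, which encodes an inhibitor of cysteine proteases, is made by astrocytes too. Those closest to *C4b* were *Gfap* (r = 0.32), *Mt1* (0.30), *Apoe* (0.30), *Apod* (0.25), *Mt2* (0.25), *Id3* (0.25), *Cst3* (0.24) and *Prdx6* (0.22). *Gfap* marks astrocytes, *Apod* is a gene of oligodendrocytes and fibroblasts, and *Mt1* and *Mt2* are metallothionein genes of glia. *Cst3* was the single gene named in both rankings.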

How the data were processed

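Spatial transcriptomes of 4 sections were used. The authors ran Space Ranger 1.3.1 (per the file headers) with mm10 (per the labels) and deposited UMI counts for each gene and spot that had not been normalized. Total UMIs set the depth, and p-values rest on 4 sections. No pair of sections agreed within sampling noise, by chi-square divided by degrees of freedom (14.5 to 55.4). The score of a spot was its excess of UMIs over the expected number, in units of the root of that number. The 8 myelin genes included *Mbp*, *Mobp*, *Cnp*, *Mal*, *Mag*, *Mog* and *Cldn11*. OPC markers were *C1ql1*, *Cacng4*, *Cspg4*, *Lhfpl3*, *Matn4*, *Neu4*, *Pcdh15* and *Pdgfra*. Spots with at least 3 of 10 choroid plexus or 3 of 9 fibroblast markers were in neither white nor gray matter.

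Sums were tested in R 4.3.3 with edgeR 4.0.16 (TMM, filterByExpr, quasi-likelihood, Benjamini-Hochberg over all genes tested, threshold 0.05). Counts of genes leave out the 8 genes of the score used. Within gray or white matter and in the interaction they leave out the genes of both scores. Standard errors are the size of the log2 fold change over the root of F. The section is a block because both groups share its tissue. Deviations of the groups of a section from their means correlated by 0.14 to 0.51. The tests and ratios were tested on simulated data. Alternatives were DESeq2 1.42.0, other scaling, filters, depth limits, spot rules and leaving out each section.

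Intervals are exact (Clopper-Pearson, 95%). Coordinates and promoters are those of RefSeq for GRCm38.p6. From each list the text names the 2 largest rises and the 2 largest falls past the threshold, and all genes of lists of 5 or fewer. Some genes that these rules pick are not reported here. *C4a* was named after its values were seen. The members and lists were chosen with earlier results of these data known.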

Additional observations from a re-analysis of the deposited data

Results flagged for a closer look

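Of 90 values compared across the 4 sections, 6 had a section far from the other sections by Dixon's test, where chance gives about 1 in 20, or 4.5. *Tmem119* over all spots stood at 28.08 CPM in section 2 and at 22.53 to 22.75 CPM in the other sections. In OPC-marker-high against other spots within white matter, *Cx3cr1* had a log2 ratio of 0.4749 in section 2 and of −0.42 to −0.35 in the others, and *Trem2* one of 1.672 in section 4 and of 0.27 to 0.48 in the others, on 19 to 34 OPC-marker-high white matter spots per section. The co-detection ratio of *Cx3cr1* and *C1qa* was 1.359 in section 3 (1.065 to 1.086 elsewhere), that of *P2ry12* and *C1qc* 1.36 (1.093 to 1.134) and that of *Csf1r* and *Trem2* 1.298 (1.117 to 1.144). Section 3, where these 3 ratios were highest, had the lowest median of UMIs per spot.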

How the results depend on the processing

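The direction of the white matter comparison depended on scaling. Per spot 12332 genes were called, the members' median was −0.62, and *Cx3cr1* (−0.99), *P2ry12* (−0.65), *Tmem119* (−0.55), *Csf1r* (−0.66), *C1qa* (−0.51), *C1qb* (−0.43), *C1qc* (−0.62) and *Trem2* (−0.65) reversed. By construction this scale divides by spots, and white matter spots held fewer UMIs. In the other alternatives the 9 members kept their direction, and *P2ry12* alone lost its call, in spots with at least 5000 UMIs (0.25, adjusted p = 0.0512). Leaving out a section gave 2343 to 3723 genes called, the lowest without section 3.

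In the OPC comparison 839 genes and 3 members were called. Genes called were 3692 per spot, 341 with DESeq2, 8 with no replicate block, 382 with the top 5% of spots, 535 with *Pdgfra* alone, 497 with the 7 other markers and 508 to 836 without a section. Members called were 1 per spot and with the top 5% or 20% of spots, 0 with no replicate block and with the 7 other markers, and 1 to 3 without a section. *Tmem119* turned below 0 per spot (−0.082) and with the top 5% (−0.18), and ran from −0.046 without section 2 to 0.17 without section 4. Below 0 were also *P2ry12* (−0.010) and *C1qc* (−0.0078) per spot. Within gray matter 304 genes were called, against 540 with no filter, 125 with DESeq2, 7 with no replicate block, 75 and 524 with the top 5% and 20%, 39 with *Pdgfra* alone, 535 with gray matter as all spots below the white matter threshold, and 125 to 598 without a section. *C1qa* turned to −0.0078 there with the top 20%, and *Csf1r* to −0.16 with *Pdgfra* alone, running from −0.018 without section 1 to 0.19 without section 4. Within white matter 38 genes were called, against 367 per spot, 61 with no filter, 4 with DESeq2, 0 with no replicate block, 8 in spots with at least 5000 UMIs, 7 and 25 with the top 5% and 20%, 3 with *Pdgfra* alone, 15 with the top 10% by myelin score, and 7 to 26 without a section. The interaction gave 0 to 3 genes without a section. No alternative called a member within gray or within white matter or in the interaction.

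Median co-detection ratios for the 28 pairs and for the *C4b* pairs were 0.93 and 0.76 with the proportional rate, 1.35 and 1.27 after thinning, and 1.12 to 1.17 and 1.06 to 1.11 without a section. The cause was not tested, apart from the construction named for the per-spot scale. Depth limited *Cx3cr1*, *Trem2*, *Tmem119* and *C4b* most, with 142, 238, 249 and 265 UMIs in white matter.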

Other observations

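Spots with at least 3 of 9 fibroblast markers (108, 169, 58 and 40 in sections 1 to 4), which entered neither white nor gray matter, held *C4b* at 32.9, 36.1, 69.4 and 14.1 CPM and *C1qb* at 110, 161, 186 and 106 CPM. *C1qa* was counted there at 86.7, 142, 126 and 80.3 CPM and *C1qc* at 71.9, 120, 150 and 88.3 CPM. In sections 1 to 3 the level of *C4b* in these spots was thus at or above that in white matter (32.3, 24.4 and 50.2 CPM), and in section 4 below it (46.0 CPM). Choroid plexus-marker spots were numerous in sections 1 (189) and 4 (76) alone. *C4b* was counted there at 19.8 and 16.9 CPM and *C1qb* at 88.1 and 69.1 CPM. These spots were not tested against others.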
